A study of Mus musculus with 10 samples.

Results

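Antigen presentation was followed through 10 genes of the major histocompatibility complex (MHC) pathway, taken by name (with earlier results of these data known): the class I heavy chains H2-K1 and H2-D1, the class I light chain B2m, the loading factor Tapbp, the class I transactivator Nlrc5, the class II chains H2-Aa, H2-Ab1 and H2-Eb1, the invariant chain Cd74 and the class II transactivator Ciita. All 10 were found among the 55486 genes of the bulk RNA sequencing table, which held 10 libraries in 6 groups from 5 gels of collagen and basement membrane extract (BME). The normal fibroblasts (NFs) came from mammary glands of mTmG mice aged 8 weeks, were sorted by the surface protein CD26 (glands of several mice were pooled per sort, per the study's methods), grown in 2D and mixed in equal parts in a gel. The mTmG reporter is red until Cre turns it green, and only the CD26+ NFs had received adeno-Cre, so subset and virus cannot be told apart. Tumor cells were the lines 13-MCB-17 and 10-SJK-221, from tumors of WapCre mice (Cre driven in mammary epithelium) with conditional alleles that include floxed Cdh1, a model of invasive lobular carcinoma. Gel 1 held NFs alone and gave 1 library of CD26- NFs and 1 of CD26+ NFs, neither of them replicated. Line 13-MCB-17 was grown alone in gel 2 and with both NF subsets in gel 4, and line 10-SJK-221 alone in gel 3 and with both subsets in gel 5. After 7 days all cells of a gel were sorted by color, so that a co-culture gel yielded a library of either NF subset and 1 of tumor cells. The comparisons ask how either NF subset and the tumor cells differ, and how they respond to each other.

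As background, class I molecules pair a heavy chain with B2m and display peptides from the cell's own proteins to CD8+ T cells. The peptides are cut by the proteasome, pumped into the endoplasmic reticulum by the TAP transporter and loaded with the help of tapasin, the product of Tapbp, while Nlrc5 raises transcription of class I genes. Class II molecules pair an alpha chain with a beta chain, are escorted by the invariant chain Cd74 and display peptides to CD4+ T cells. They belong mostly to professional antigen-presenting cells, where Ciita switches on the class II genes and Cd74 together, and interferon-gamma can induce them in fibroblasts and epithelial cells.

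The stretches just upstream of the class I chains H2-K1, H2-D1 and B2m and of the class II chain H2-Aa are shown because the heavy chains rose together in co-cultured NFs, B2m less so, while H2-Aa stayed near 0. H2-Ab1, Nlrc5 and Ciita are not shown. Each is the 250 bases before a RefSeq transcript start (GRCm38.p6), 5′ to 3′ on the gene's strand. H2-K1 lies at chr17:34000348-34000597 (minus strand), H2-D1 at chr17:35262844-35263093 (plus), B2m at chr2:122147437-122147686 (plus) and H2-Aa at chr17:34287824-34288073 (minus). Capitals mark GGGGATTCCC (an NF-kB-type element), CAGTTTCACTTCT (an interferon-response-type element), TGACG (the core of CRE-type elements) and CCAAT, each searched on both strands, so that ATTGG is CCAAT on the other strand.
H2-K1: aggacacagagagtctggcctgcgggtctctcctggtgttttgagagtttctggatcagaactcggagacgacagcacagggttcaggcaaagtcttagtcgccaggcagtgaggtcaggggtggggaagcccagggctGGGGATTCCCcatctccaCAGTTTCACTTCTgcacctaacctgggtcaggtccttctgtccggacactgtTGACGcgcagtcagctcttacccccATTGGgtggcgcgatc
H2-D1: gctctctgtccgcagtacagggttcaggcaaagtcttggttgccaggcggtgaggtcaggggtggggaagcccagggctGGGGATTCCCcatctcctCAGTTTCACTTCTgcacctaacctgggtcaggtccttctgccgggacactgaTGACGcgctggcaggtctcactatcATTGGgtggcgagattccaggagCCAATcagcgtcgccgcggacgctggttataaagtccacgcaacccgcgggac
B2m: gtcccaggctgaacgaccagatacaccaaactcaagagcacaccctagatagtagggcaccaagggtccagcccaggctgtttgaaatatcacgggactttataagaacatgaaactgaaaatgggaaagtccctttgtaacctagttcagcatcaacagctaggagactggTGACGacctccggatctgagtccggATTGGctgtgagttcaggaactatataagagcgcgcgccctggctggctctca
H2-Aa: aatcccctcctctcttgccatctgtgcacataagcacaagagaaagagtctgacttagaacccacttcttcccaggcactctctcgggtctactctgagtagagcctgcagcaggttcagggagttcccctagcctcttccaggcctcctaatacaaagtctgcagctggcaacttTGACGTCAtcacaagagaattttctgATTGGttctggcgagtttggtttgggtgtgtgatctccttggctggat
H2-K1 and H2-D1 hold all 4 motifs in the same order. GGGGATTCCC lies at -111 to -102 in H2-K1 and at -171 to -162 in H2-D1, counted from the base before the start as -1, and CAGTTTCACTTCT lies at -93 to -81 and -153 to -141. Of these exact strings, B2m and H2-Aa hold TGACG and CCAAT only, and in H2-Aa a TGACG on either strand overlaps in TGACGTCA. Variants of the elements were not searched, so B2m and H2-Aa are not shown to lack elements of these types. Among all 32851 mouse promoter windows of this length, 0.0852% held GGGGATTCCC, 0.0244% held CAGTTTCACTTCT, 17.8% held TGACG and 33.8% held CCAAT. The letters were chosen after the windows had been read, and both longer strings are stretches of the H2-K1 window itself. Their match in H2-K1 was therefore fixed in advance, and H2-D1 is a close copy of H2-K1. For this reason the shares over all windows do not measure how unusual these matches are. A match is a description of sequence, not a binding site. Windows of 6 of the 10 members were searched, and those of Tapbp and H2-Eb1 held CCAAT only.

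Libraries held 14142334 to 18408940 counts, so an observed 0 allows at most 3 counts, or 0.163 to 0.212 CPM (counts relative to each library's total), for counting error only. As a check of the labels, Epcam had 335 to 432 CPM in tumor cells and 0 in NFs alone, Col1a1 had 7882 to 18560 CPM in NFs and 1.78 to 89.1 CPM in tumor cells, and Dpp4, which encodes CD26, had 0.281 to 0.771 CPM in CD26+ NFs against 0 to 0.0576 CPM in CD26- NFs. Other markers did not follow cell type: Fbln2, on the fibroblast list, had 2784 to 4114 CPM in co-cultured NFs but 7316 and 6231 CPM in the tumor cells of the same gels, and Prom2, on the epithelial list, had 2.97 to 13 CPM in co-cultured NFs and 0 and 0.742 CPM in those tumor cells. Cdh1 had 139.9 to 269 CPM in tumor cells. Counts per gene do not show whether its floxed exons were read. From the median of 10 epithelial markers, co-cultured NF libraries held tumor RNA equal to 1.97% to 5.46% of the tumor library of their gel, most in the CD26+ NFs of gel 5. Single markers spread widely around this median, in gel 5 from 0.827% to 722% in CD26- NFs and from 2.57% to 401% in CD26+ NFs, and in gel 4 the highest could not be computed because Prom2 was at 0 in tumor cells. At the median, this share would account for at most 3.62% of the H2-K1 level, 2.62% of H2-D1, 2.83% of B2m and 0.00767% of H2-Ab1 in any NF library, but for up to 13.1% of Tapbp and 47% of Cd74. Class I genes are close copies of each other, and both cell types come from FVB/n mice, whose H2 alleles differ from those of the reference genome. Reads can therefore be split between class I genes or lost, which was not tested. In bulk libraries, fewer expressing cells and less RNA per cell cannot be told apart.

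Levels of different genes are compared per kilobase of exon (CPM per kb). B2m stood first in every group, with 379 to 894 CPM per kb, followed by H2-D1 with 58.1 to 276. In NFs alone Tapbp came next at 37.2 and 42.3 CPM per kb, and H2-K1 at 21.5 and 44.2, so that their ranges overlapped. In co-cultured NFs H2-K1 came next at 94 to 152 CPM per kb, above Tapbp at 27.1 to 50.6 in all 4 libraries. In tumor cells Tapbp had 94.3 to 111 CPM per kb and H2-K1 had 76.5 to 101, without a clear order. The other 6 members stayed below 3 CPM per kb everywhere, except H2-Ab1 in co-cultured NFs at 9.25 to 15.8. The summed heavy chains H2-K1 and H2-D1, relative to B2m per kb, were 0.21 and 0.228 in NFs alone, 0.384 to 0.478 in co-cultured NFs and 0.417 to 0.512 in tumor cells. The ratio in NFs alone thus lay below all other libraries.

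Counts of called members are read against the share of all genes called in the same comparison (edgeR quasi-likelihood test with Benjamini-Hochberg adjustment over all genes tested, threshold 0.05). H2-Aa and Ciita were too low to be tested in any comparison, which left 8 members in the NF comparisons and 5 in the tumor comparisons. Between co-cultured NFs and NFs alone, with both subsets in the fit, H2-K1, H2-D1, B2m and H2-Ab1 were higher and none lower, 4 of 8 tested, where 48.8% of all genes tested were called (25.9% higher, 22.9% lower), so the members' share was close to that of all genes. In CD26- NFs the same 4 were called (background 30.8%, of which 16.6% higher and 14.1% lower). In CD26+ NFs H2-K1, H2-D1 and H2-Ab1 were called, 3 of 8 (background 34.2%, with 19% higher and 15.2% lower). No member had an interaction of subset and culture (edgeR, 0 of 8 at an adjusted p under 0.05, 0 at an unadjusted p under 0.05, and 0 with DESeq2, against a background of 0.376%, with 0.228% higher and 0.148% lower). CD26+ NFs had higher H2-K1, H2-D1 and Nlrc5 than CD26- NFs over 3 gels, 3 of 8 (background 7.53%, with 3.93% higher and 3.6% lower). Within co-culture H2-D1 and Nlrc5 were higher, 2 of 8 (background 6.01%, with 3.48% higher and 2.53% lower). In tumor cells co-culture changed Cd74 alone, 1 of 5 (background 22.3%, with 10.8% higher and 11.5% lower). Between the lines 0 of 5 passed with edgeR (3 at an unadjusted p under 0.05, namely H2-D1, B2m and Cd74) and 0 with DESeq2, where the background was 14.5% (5.93% higher, 8.54% lower). NFs alone came from gel 1 only, so culture and that gel cannot be told apart in any NF comparison of culture.

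The class I heavy chains rose in NFs of both subsets with tumor cells present. H2-K1 (ENSMUSG00000061232, chromosome 17, 33996017 to 34000347, minus strand) had 63.2 CPM in CD26- and 129.8 CPM in CD26+ NFs alone. With tumor cells, CD26- NFs reached 289.8 and 276 CPM (gels 4 and 5), and CD26+ NFs reached 399.7 and 446 CPM. All 4 co-cultured NF libraries lay above NFs alone, and CD26+ NFs lay above CD26- NFs in each of the 3 gels. The change with co-culture was 4.69-fold in CD26- NFs (log2 fold change 2.23, SE 0.233, adjusted p = 8.01e-06) and 3.35-fold in CD26+ NFs (1.74, SE 0.225, adjusted p = 5.44e-05). Contrasts within a subset, here and for other genes, set 2 co-cultured libraries against 1 library of NFs alone, so the spread comes from the co-cultured libraries alone, and the single library is assumed to vary like them. The same holds for the interaction. The interaction was -0.49 (SE 0.295, adjusted p = 0.79). Tumor cells had 224.8 and 257 CPM of H2-K1 without NFs, against 256 and 296 CPM with them, a difference of 0.17 that did not pass the test (SE 0.104, adjusted p = 0.291).

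H2-D1 (ENSMUSG00000073411, chromosome 17, 35262730 to 35267499, plus strand) followed the same order in NFs. It had 149.9 and 278 CPM in CD26- and CD26+ NFs alone, 396 and 656 CPM in gel 4, and 355 and 711 CPM in gel 5. The lowest co-cultured library, CD26- NFs of gel 5, lay above both libraries of NFs alone. With co-culture H2-D1 was 2.62-fold higher in CD26- NFs (log2 fold change 1.39, SE 0.224, adjusted p = 0.000343) and 2.52-fold higher in CD26+ NFs (1.33, SE 0.223, adjusted p = 0.000454), where culture and gel 1 cannot be told apart. Tumor cells grown alone had 498 and 375 CPM, against 362 and 341 CPM with NFs, lower in either line without passing the test (-0.32, SE 0.125, adjusted p = 0.103). The ratio of H2-D1 to H2-K1 per kb was 2.7 and 2.44 in NFs alone, 1.47 to 1.87 in co-cultured NFs and 1.31 to 2.52 in tumor cells.

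B2m (ENSMUSG00000060802, chromosome 2, 122147686 to 122153083), the light chain shared by all class I molecules, changed less. It had 326 and 573 CPM in CD26- and CD26+ NFs alone, 487 and 717 CPM in gel 4, and 519.5 and 769 CPM in gel 5. Either subset was above its own library of NFs alone, but both libraries of CD26- NFs in co-culture lay below CD26+ NFs alone. The rise was 1.62-fold in CD26- NFs (log2 fold change 0.69, SE 0.221, adjusted p = 0.0294), a call lost with all 10 libraries in 6 groups (adjusted p = 0.0732, with a range of 0.00525 to 0.0732 over its alternatives). In CD26+ NFs the difference of 0.41 did not pass the test (SE 0.218, adjusted p = 0.159). Over both subsets it was 0.55 (SE 0.146, adjusted p = 0.0121), and it no longer passed without gel 5 (0.46). Tumor cells had 478 and 391 CPM alone and 469.7 and 398 CPM in co-culture, so culture made a difference of only -0.03 (SE 0.111, adjusted p = 0.895).

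**Figure D1:**
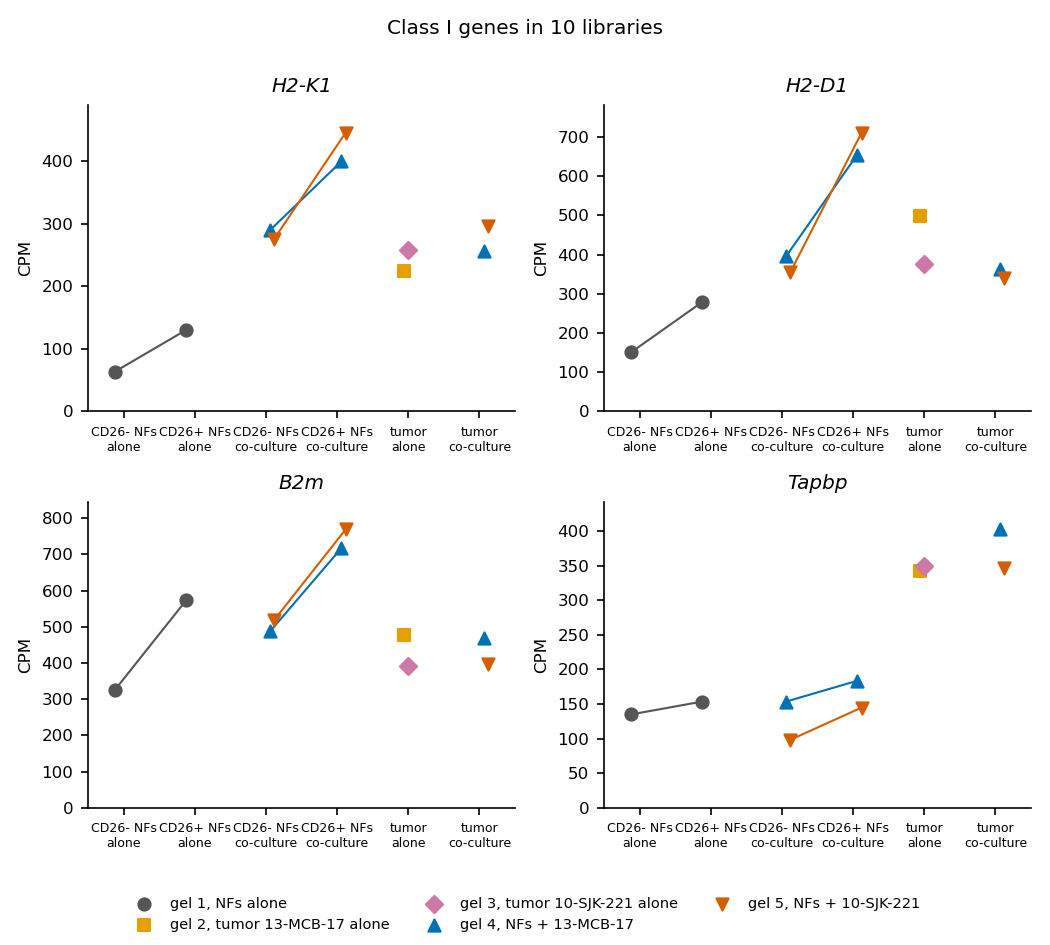
CPM (vertical axis, from 0) of H2-K1, H2-D1, B2m and Tapbp in the 6 groups (horizontal axis), where each point is 1 library, the color and marker give the gel, and lines join CD26- and CD26+ NFs of the same gel. H2-K1 and H2-D1 in all 4 co-cultured NF libraries lie above both libraries of NFs alone, B2m rises less, and Tapbp is lower in every NF library than in every tumor library.

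Tapbp (ENSMUSG00000024308, chromosome 17, 33915899 to 33929292), the tapasin gene, was lower in NFs than in tumor cells, and no change with culture passed the test. NFs had 98.2 to 183.5 CPM and tumor cells 342 to 402 CPM, with no overlap. Co-culture made a difference of 0.04 in NFs (SE 0.174, adjusted p = 0.864) and 0.08 in tumor cells (SE 0.114, adjusted p = 0.653). Of its exon bases, 29% overlap Zbtb22 or the antisense gene Gm19412, so its count may hold reads of these genes.

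Nlrc5 (ENSMUSG00000074151, chromosome 8, 94434356 to 94527272), the class I transactivator, followed the subset, which cannot be told apart from the virus. CD26- NFs had 0.807, 0.848 and 0.691 CPM in gels 1, 4 and 5, and CD26+ NFs had 5.97, 3.73 and 3.25 CPM. Behind these values stood 13, 14 and 12 counts in CD26- NFs and 85, 58 and 46 in CD26+ NFs, and the subsets did not overlap. CD26+ NFs were 4.79-fold higher over 3 gels (log2 fold change 2.26, SE 0.344, adjusted p = 0.00743). Co-culture made a difference of -0.47 over both subsets (SE 0.347, adjusted p = 0.284), so Nlrc5 did not rise beside the heavy chains in the same libraries. Tumor cells had 25 and 0 counts alone and 6 and 1 counts in co-culture, too few for a test in the main fit. Without the filter on low counts, Nlrc5 was lower in line 10-SJK-221 (adjusted p = 0.00137, edgeR), at these low counts.

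CD26+ NFs had higher heavy chain levels than CD26- NFs, but these calls depended on the fit, and subset and virus cannot be told apart. Over 3 gels CD26+ NFs were 1.49-fold higher in H2-K1 (log2 fold change 0.57, SE 0.141, adjusted p = 0.0403) and 1.65-fold higher in H2-D1 (0.72, SE 0.122, adjusted p = 0.0115), each in 3 of 3 gels. B2m was higher in 3 of 3 gels as well but missed the threshold (0.49, SE 0.135, adjusted p = 0.0575), while it passed with DESeq2 (adjusted p = 0.00728, with a range of 0.00728 to 0.318 over its alternatives). Within co-culture, H2-D1 (0.69, SE 0.171, adjusted p = 0.0303) and Nlrc5 (2.00, SE 0.415, adjusted p = 0.0117) passed, and H2-K1 did not (0.41, SE 0.169, adjusted p = 0.193). Cd74 (1.21 over 3 gels and 1.94 within co-culture), Tapbp (0.17 and 0.22), H2-Ab1 (0.23 and 0.37) and H2-Eb1 (-0.32 and -0.38) passed in neither. Without gel 5, no member passed over 3 gels, in a fit that called 17 of 14434 genes, although H2-K1 (0.62), H2-D1 (0.68) and Nlrc5 (2.37) kept similar values. H2-K1 also failed without gel 1 (0.42) and without the filter on low counts (adjusted p = 0.0566), as did H2-D1 within co-culture without the filter (adjusted p = 0.0692). With all 10 libraries in 6 groups no member passed in either comparison of subsets, with H2-K1, H2-D1 and Nlrc5 at adjusted p-values of 0.0636, 0.0636 and 0.185 over 3 gels.

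**Figure D2:**
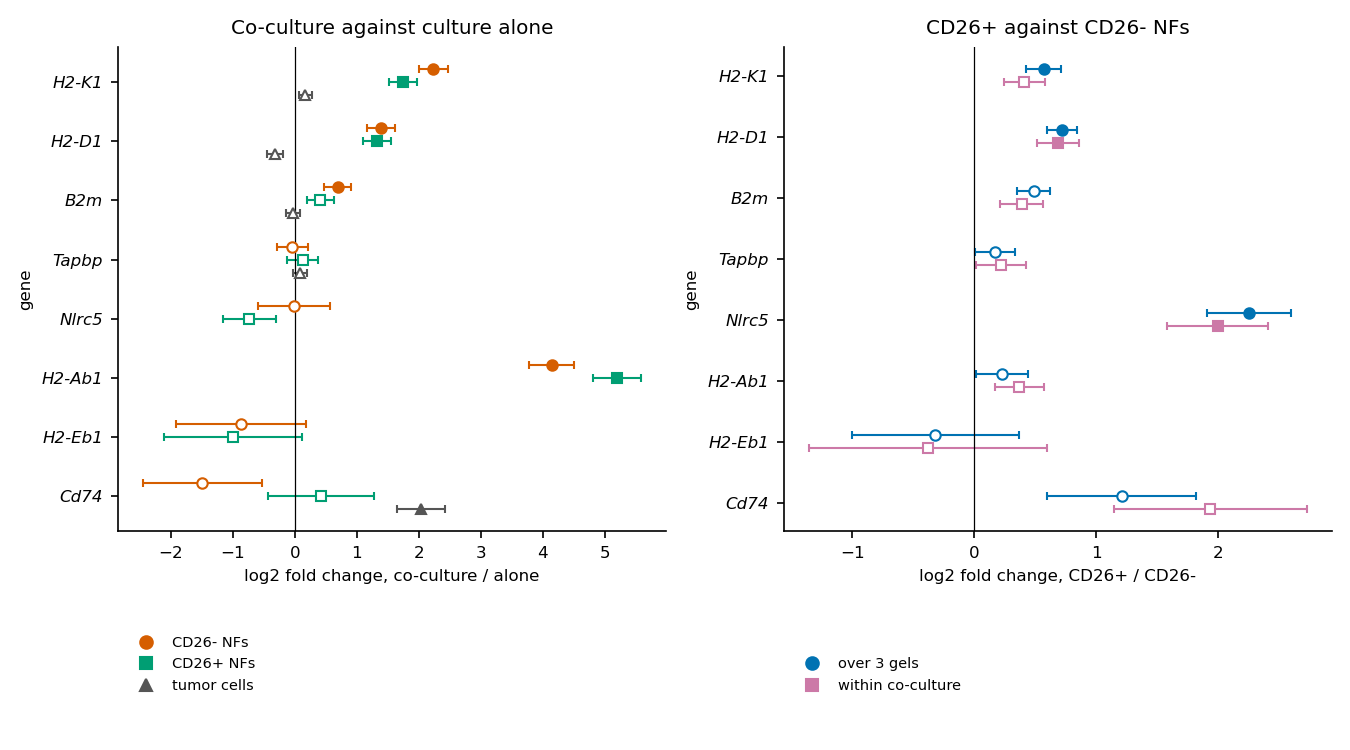
Log2 fold changes (horizontal axis) of the 8 members tested, for co-culture against culture alone (left) and CD26+ against CD26- NFs (right). Bars are SE, filled symbols are adjusted p-values under 0.05, and members without a symbol were not tested: H2-K1, H2-D1 and H2-Ab1 are filled in NFs of both subsets on the left, Cd74 is the filled symbol of tumor cells, and H2-D1 and Nlrc5 are filled on the right both over 3 gels and within co-culture.

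Of 12 listed genes for class I peptide loading and the immunoproteasome, 0 rose and 5 fell in co-cultured NFs, where 25.9% of all genes rose and 22.9% fell (median log2 fold change -0.45, against 0.02 over all genes). Those that fell most were Erap1, which trims peptides (-1.40, SE 0.166, adjusted p = 0.000118), Psmb10, an immunoproteasome subunit (-1.12, SE 0.21, adjusted p = 0.00186), and Psme1, a proteasome activator subunit (-0.70, SE 0.164, adjusted p = 0.00625). For Erap1, NFs alone stood at 39.5 and 29.8 CPM and co-cultured NFs at 11.9 to 14.6 CPM, without overlap. Tap1, a TAP transporter subunit, had 27 and 54.4 CPM in NFs alone, and between 16.9 and 38.5 CPM in co-culture, a difference of -0.39 (SE 0.165, adjusted p = 0.0776). Without gel 5, 3 of the 12 fell, in a fit where 2730 of 14434 genes rose and 2401 fell. Tap1 was the 1 gene of this list that differed between subsets over 3 gels, higher in CD26+ NFs (0.74, SE 0.158, adjusted p = 0.0268), a call lost without gel 1 or without gel 5.

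In tumor cells 4 of these 12 were higher and 0 lower in co-culture, where 10.8% of all genes were higher and 11.5% lower (median 0.14, against 0.01 over all genes), and 8 were not called. Psmb8, an immunoproteasome subunit, had 3.75 and 0.445 CPM alone and 9.56 and 1.25 CPM in co-culture, higher in either line (1.35, SE 0.299, adjusted p = 0.0138). Psmb10 rose by 1.03 (SE 0.158, adjusted p = 0.00276) and Erap1 by 0.45 (SE 0.109, adjusted p = 0.0201). The lines differed more than the cultures for Psmb8, which was lower in 10-SJK-221 in both cultures. With DESeq2, 1 of the 12 passed in tumor cells. Without line in the model, co-culture in tumor cells called 0 of 13197 genes with edgeR (2207 at an unadjusted p under 0.05), so no gene on this or any other list passed for this comparison in that fit.

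**Figure D3:**
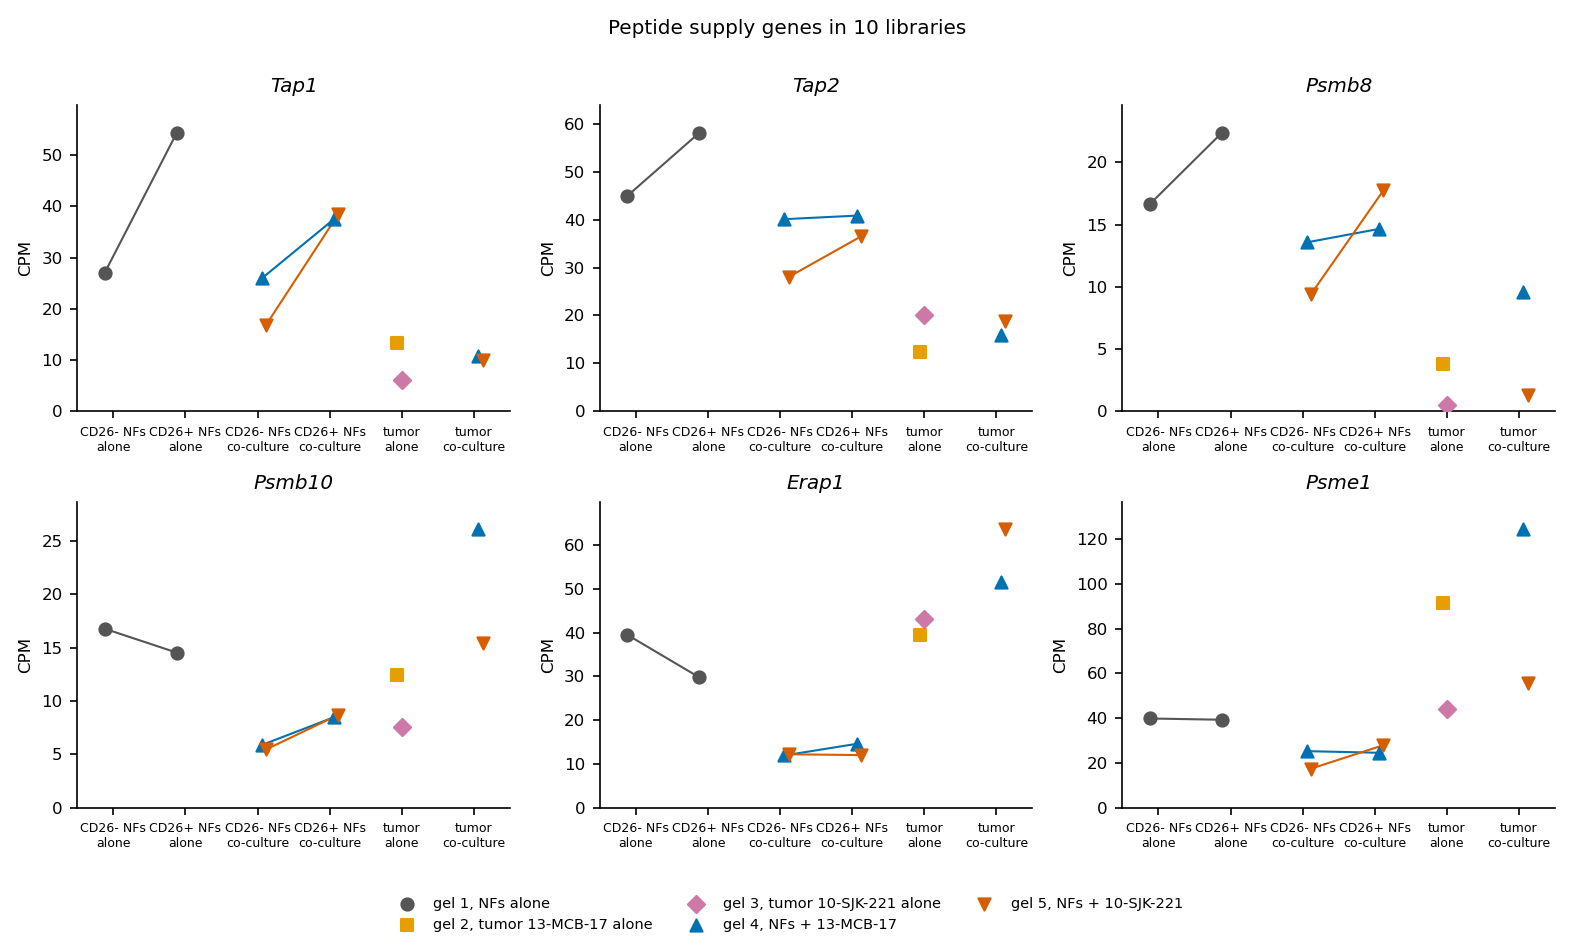
CPM (vertical axis, from 0) of Tap1, Tap2, Psmb8, Psmb10, Erap1 and Psme1 in the 6 groups (horizontal axis), 1 point per library, with color and marker for the gel and lines joining NFs of the same gel. Erap1 and Psmb10 are lower in co-cultured NFs and higher in co-cultured tumor cells than in the same cells alone, and Psme1 falls in NFs from 39.9 and 39.3 CPM to between 17.5 and 27.9 CPM.

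Other class I and class I-like genes rose with H2-K1 and H2-D1. Of 18 listed genes, 17 were tested in NFs, and 13 rose and 0 fell in co-culture, against 25.9% and 22.9% of all genes (median log2 fold change 1.53, against 0.02 over all genes). H2-Q10, a secreted class I molecule, had 5 and 3 counts in NFs alone, and between 9.38 and 41.8 CPM with tumor cells (6.39, SE 0.414, adjusted p = 3.05e-06). H2-Q7, a Qa-2 antigen gene, had 0.248 and 1.61 CPM alone and 18 to 48.2 CPM in co-culture (5.24, SE 0.29, adjusted p = 1.24e-06). H2-T22, a ligand of gamma-delta T cells, rose from 11.5 and 10 CPM to between 22.4 and 35 CPM (1.53, SE 0.193, adjusted p = 0.000175). Mr1, which presents vitamin B metabolites, rose by 0.76 (SE 0.164, adjusted p = 0.00402). Without gel 5, 8 of the 17 rose, in a fit where 2730 of 14434 genes rose and 2401 fell. In CD26+ NFs taken by themselves Cd1d1, which presents lipids, fell (-1.18, SE 0.263, adjusted p = 0.00381). H2-Q4 (1.30, SE 0.176, adjusted p = 0.00522), H2-Q7 (1.18, SE 0.203, adjusted p = 0.012) and H2-Q10 (1.79, SE 0.259, adjusted p = 0.00633) were also higher in CD26+ than in CD26- NFs over 3 gels, 3 of 17 against 3.93% of all genes, and 0 without gel 5, in a fit that called 17 of 14434 genes. The same 3 were higher within co-culture (1.07, 1.04 and 1.91, with adjusted p-values of 0.00227, 0.00416 and 8.24e-05), against 3.48% of all genes.

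In tumor cells 4 of the 12 tested rose and 1 fell, against 10.8% and 11.5% of all genes. The 4 were Cd1d1, Fcgrt, the neonatal Fc receptor heavy chain, Mr1 and H2-Q4, and the 1 that fell was H2-T23, the mouse Qa-1 gene (-1.03, SE 0.201, adjusted p = 0.00796). H2-T23 went from 15.3 and 11.9 CPM in tumor cells alone to 6.45 and 7.02 CPM. In NFs it had 13.7 and 24.4 CPM alone and 23.4 to 39.9 CPM in co-culture, a rise of 0.81 (SE 0.258, adjusted p = 0.0267). With DESeq2, 0 rose and 1 fell in tumor cells. The Q and T region genes are near copies of each other, so the split of reads between them is uncertain.

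**Figure D4:**
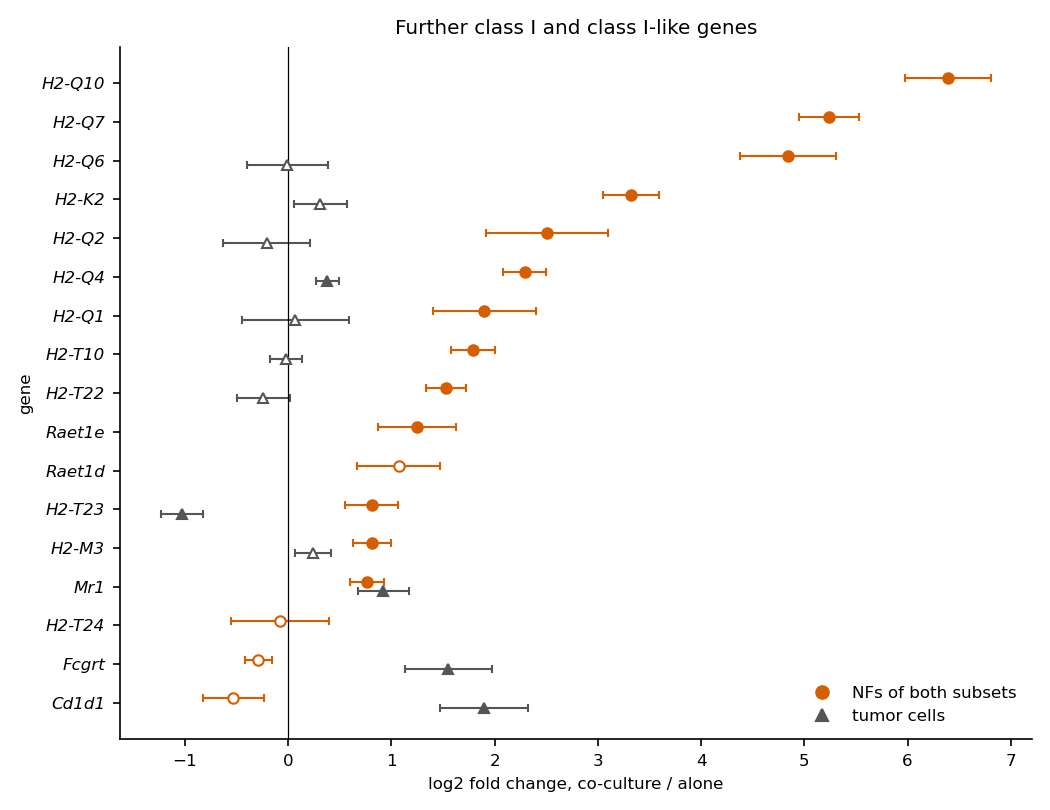
Log2 fold changes in co-culture (horizontal axis) for the 17 listed class I and class I-like genes tested in NFs, with SE bars, circles for NFs of both subsets and triangles for tumor cells, filled where the adjusted p-value was under 0.05. In NFs 13 circles are filled and lie right of 0, from 0.76 for Mr1 to 6.39 for H2-Q10, and in tumor cells H2-T23 is the filled triangle left of 0.

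Among class II genes, H2-Ab1 stood apart. H2-Ab1 (ENSMUSG00000073421, chromosome 17, 34257689 to 34269419), which encodes a class II beta chain, had 23 and 14 counts (1.43 and 0.983 CPM) in CD26- and CD26+ NFs alone. It had 392 and 467 counts (23.8 and 30 CPM) in gel 4 and 429 and 574 counts (24.7 and 40.6 CPM) in gel 5. No co-cultured NF library overlapped with NFs alone. The rise was 17.7-fold in CD26- NFs (log2 fold change 4.14, SE 0.355, adjusted p = 1.26e-06) and 36.6-fold in CD26+ NFs (5.20, SE 0.384, adjusted p = 3.85e-07), with an interaction of 1.05 (SE 0.557, adjusted p = 0.725). Tumor cells had 0 and 3 counts alone and 1 count in either co-culture.

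Its partners in the class II pathway were not found at comparable levels. H2-Aa (ENSMUSG00000036594, chromosome 17, 34282744 to 34287823), the alpha chain that pairs with the H2-Ab1 product, had 0, 0 and 0 counts in CD26- NFs of gels 1, 4 and 5, and 3, 1 and 0 in CD26+ NFs. All 10 libraries were at or under the count that an observed 0 allows. Ciita (ENSMUSG00000022504, chromosome 16, 10480059 to 10528418) had 1 count in CD26- NFs of gel 4 and 0 in the other 9 libraries. H2-Eb1 (ENSMUSG00000060586, chromosome 17, 34305867 to 34316674), a further beta chain, had 11 and 9 counts in NFs alone and between 2 and 10 counts in co-cultured NFs, a difference of -0.93 (SE 0.693, adjusted p = 0.292). It had 0 counts in all 4 tumor libraries.

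Cd74 (ENSMUSG00000024610, chromosome 18, 60803848 to 60812652), the invariant chain, was low in NFs and moved in tumor cells. NFs had 10 and 10 counts alone, and 4 and 3 counts (CD26-) or 11 and 16 counts (CD26+) in gels 4 and 5. Its difference with co-culture was -0.43 over both subsets (SE 0.631, adjusted p = 0.597). Tumor cells had 8 and 17 counts alone and 40 and 68 counts in co-culture, or 0.435 and 1.08 against 2.26 and 3.88 CPM, higher in either line. This 4.08-fold rise passed the test with line in the model (log2 fold change 2.03, SE 0.385, adjusted p = 0.00703). It did not pass without line (2.00), with all 10 libraries fitted together (2.01) or with DESeq2 (2.07, adjusted p = 0.0755), and adjusted p-values over its alternatives ran from 6.15e-06 to 0.215. Of 12 markers of macrophages and dendritic cells, 5 were also higher in both co-cultured tumor libraries than in both grown alone, namely Laptm5 (9 and 10 counts alone, 116 and 58 in co-culture), Csf1r (1.79 and 7.25 CPM alone, 11.6 and 12.95 CPM in co-culture), Itgax, Itgam and Zbtb46. Cd68 was lower (299 and 93.1 CPM alone, 80.5 and 34.8 CPM in co-culture), and the 12 summed to 303 and 103.7 CPM alone and to 105 and 55.95 CPM in co-culture, and Ptprc had 2 counts at most. Their part in the Cd74 rise was not tested.

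**Figure D5:**
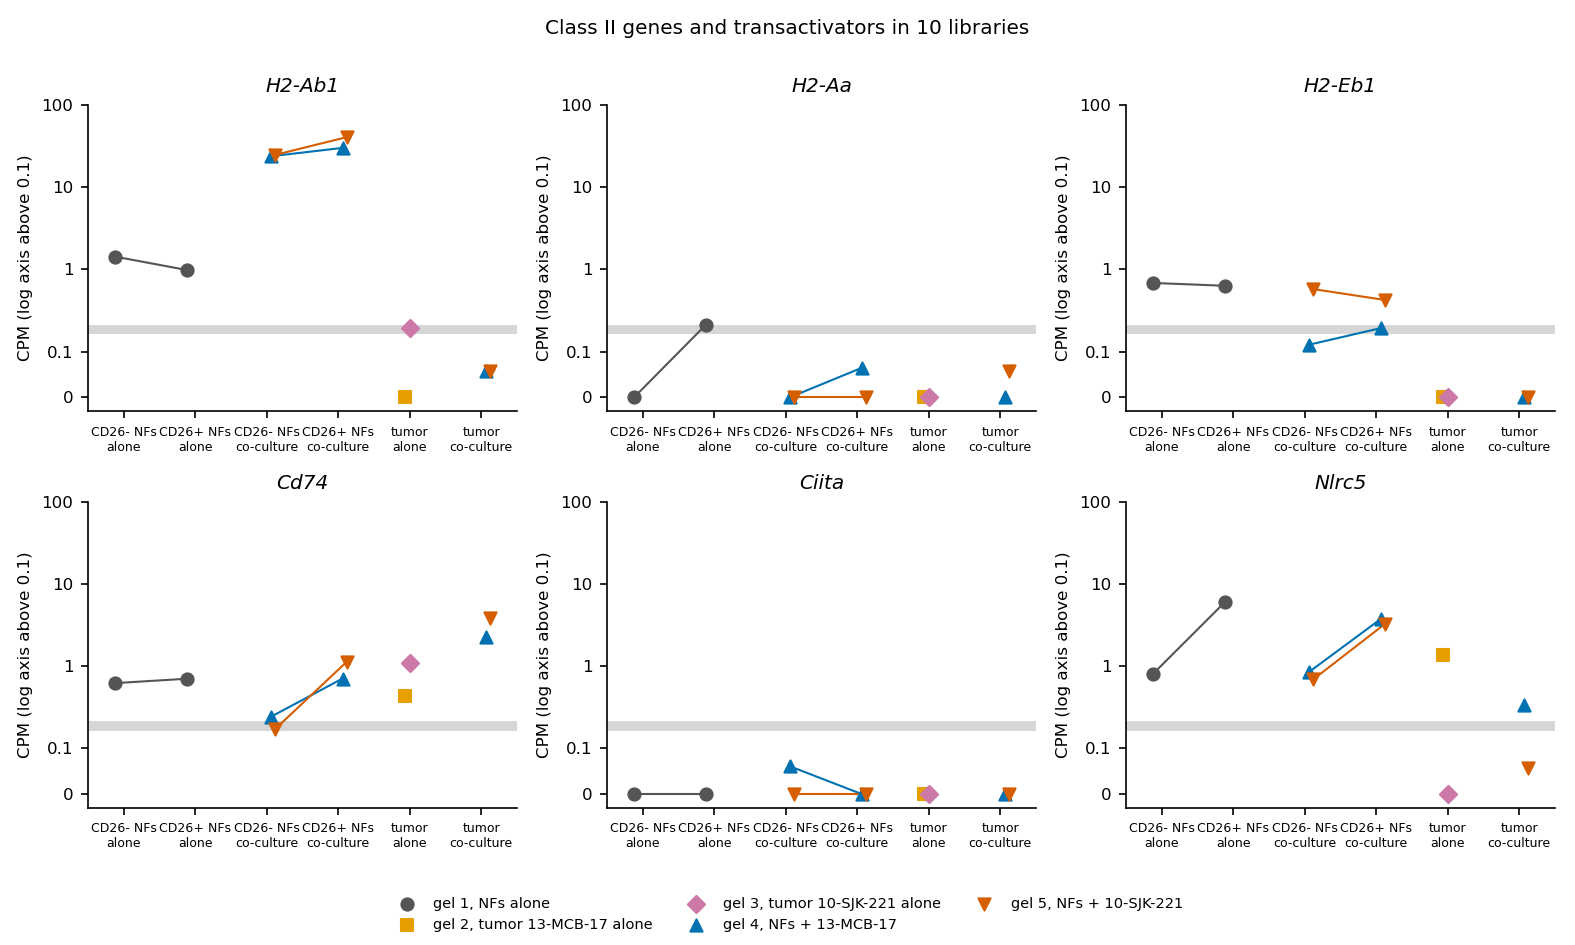
CPM (vertical axis, linear from 0 to 0.1 and logarithmic above) of H2-Ab1, H2-Aa, H2-Eb1, Cd74, Ciita and Nlrc5 in the 6 groups (horizontal axis), 1 point per library, with color and marker for the gel, lines joining NFs of the same gel and a gray band for the level of 3 counts. H2-Ab1 reaches 23.8 to 40.6 CPM in co-cultured NFs, H2-Aa and Ciita stay in or below the band in every library, and Nlrc5 is higher in CD26+ than in CD26- NFs of each gel.

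Markers of professional antigen-presenting cells were read beside H2-Ab1. Ptprc, which marks all leukocytes, had at most 0.127 CPM in any library, and Tyrobp and the B cell gene Ms4a1 had 0 counts in all 10. The 12 macrophage and dendritic cell markers summed to 18.3 and 20.1 CPM for NFs alone, to between 52.8 and 84.9 CPM for co-cultured NFs and to between 55.9 and 303 CPM in tumor cells, and 3 to 6 of the 12 were at 0 in each NF library. Cd68, a lysosomal gene, went from 3.48 and 6.53 CPM in NFs alone to between 19.6 and 53.5 CPM, the largest part of the sum in co-cultured NFs. Csf1r had 1.86 and 2.81 CPM in NFs alone, and between 7.42 and 13.5 CPM in co-culture, while Lyz2 had 6.02 and 4.07 CPM alone and 0.173 to 0.964 CPM in co-culture. Itgax had 0 and 3 counts in NFs alone and 44 to 75 counts in co-culture (on average 19.7-fold the level of 3 counts per library), Itgam had 2 and 0 counts alone and 12 to 25 counts in co-culture (5.62-fold that level), and Zbtb46 had 6.46 and 6.11 CPM alone and between 12.7 and 18.6 CPM in co-culture. Laptm5 had 1 and 0 counts alone and 4 to 10 counts in co-culture. Thus Cd68, Csf1r, Itgax, Itgam, Zbtb46 and Laptm5 were higher in the same libraries as H2-Ab1. The 5 endothelial markers summed to 1.37 and 4.91 CPM in NFs alone and to between 8 and 22.9 CPM in co-culture, with Pecam1 at 0.311 and 1.26 CPM alone and 5.93 to 9.76 CPM in co-culture. The part of these markers in the H2-Ab1 result was not tested. B cell markers summed to 0.683 to 4.75 CPM and T and NK cell markers to 0.566 to 2.11 CPM over all libraries.

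Of 12 listed genes for class II processing, 6 were tested in NFs, and 1 rose and 1 fell in co-culture, against 25.9% and 22.9% of all genes (median 0.42). H2-DMb1, a chain of the peptide exchanger H2-DM, rose from 5.09 and 5.47 CPM to between 8.29 and 10.3 CPM (0.91, SE 0.205, adjusted p = 0.00518). Lgmn, a lysosomal protease, fell from 491 and 606 CPM to between 100.9 and 192 CPM (-1.99, SE 0.149, adjusted p = 7.46e-06). Ifi30, a lysosomal thiol reductase, had 22.3 and 68.9 CPM in CD26- and CD26+ NFs alone and 60.8 to 81.4 CPM in co-culture. Against the single library of NFs alone, the difference was 1.78 in CD26- NFs (SE 0.228, adjusted p = 4.97e-05) and -0.10 in CD26+ NFs (SE 0.206, adjusted p = 0.724). The interaction passed the test (-1.89, SE 0.299, adjusted p = 0.0146), for Ifi30 as the 1 gene of the 6 lists. This call was lost with counts less the share of the other cell type and with all 10 libraries in 6 groups, where edgeR called 0 of 17048 genes (916 at an unadjusted p under 0.05).

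Regulators of MHC genes moved in both directions in NFs. Of 14 listed, 4 rose and 5 fell in co-culture, near the 25.9% and 22.9% of all genes (median -0.07). Irf1, an interferon-induced activator of class I genes, fell from 112.9 and 99 CPM in NFs alone to between 40.3 and 43.1 CPM (log2 fold change -1.31, SE 0.114, adjusted p = 1.7e-05). It therefore moved opposite to H2-K1 and H2-D1 in the same libraries. Without gel 5, 2 rose and 4 fell, in a fit where 2730 of 14434 genes rose and 2401 fell. Irf8 rose but had only 1 and 5 counts in NFs alone, and Nfya, a subunit of the CCAAT-binding factor NF-Y, rose from 36.6 and 36.8 CPM to between 57.1 and 77.6 CPM. In tumor cells Irf1 had 110.5 and 85.9 CPM alone and 150.5 and 115 CPM in co-culture (0.41, SE 0.0965, adjusted p = 0.0179). Irf1 was 1 of 3 listed regulators that rose there, while 1 fell, where 10.8% of all genes rose and 11.5% fell. The difference in response between NFs and tumor cells passed the test for Irf1 (-1.73, SE 0.257, adjusted p = 0.00298), with the lower value in NFs.

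In the interferon-gamma pathway, Ifng itself had 0 counts in all 10 libraries. Of 8 listed genes, 7 were tested in NFs, and 1 rose and 4 fell in co-culture, against 25.9% and 22.9% of all genes (median -0.38). Without gel 5, 1 rose and 2 fell, in a fit where 2730 of 14434 genes rose and 2401 fell. Ifngr2, a receptor chain, rose from 46.7 and 67 CPM to between 103.6 and 144.8 CPM (1.12, SE 0.142, adjusted p = 0.000179). Socs3, a feedback inhibitor of cytokine receptors, fell by 1.25 on the log2 scale (SE 0.135, adjusted p = 6.55e-05), and Jak2, a receptor-bound kinase, fell by 0.72 (SE 0.184, adjusted p = 0.00951). In tumor cells Jak2 rose from 138 and 145 CPM to 357 and 325 CPM (1.24, SE 0.109, adjusted p = 0.000232).

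Costimulatory and checkpoint ligands, which accompany antigen presentation to T cells, rose in NFs. Of 8 listed, 5 were tested, and all 5 (Cd40, Cd274, Icosl, Cd80 and Cd47) rose in co-culture, where 25.9% of all genes did (median 1.34). Cd40, the receptor for CD40 ligand, had 2 and 28 counts in NFs alone (CD26- and CD26+), and between 45 and 65.4 CPM with tumor cells (5.82, SE 0.498, adjusted p = 1.56e-05). Cd274, which encodes PD-L1, rose from 2.98 and 3.09 CPM to between 5.76 and 11.95 CPM (1.35, SE 0.317, adjusted p = 0.00643). Icosl rose from 3.85 and 5.4 CPM to between 9.82 and 13.2 CPM (1.34, SE 0.208, adjusted p = 0.000625). Cd86 had 0 counts in all 10 libraries. In tumor cells Cd80 fell from 8.09 and 3.94 CPM to 1.81 and 1.48 CPM (-1.84, SE 0.308, adjusted p = 0.00404). It was the 1 called of 4 tested, where 11.5% of all genes fell and 10.8% rose. Without gel 5, 4 of the 5 rose in NFs, in a fit where 2730 of 14434 genes rose and 2401 fell. Between subsets Cd80 alone passed, higher in CD26+ NFs over 3 gels (1.18, SE 0.239, adjusted p = 0.022) but not without gel 5, and within co-culture (0.82, SE 0.202, adjusted p = 0.0301) but not with DESeq2.

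NFs and tumor cells were then compared directly, first each grown alone. Of 8 members tested, NFs alone had lower H2-K1, H2-D1 and Tapbp and higher H2-Ab1 and H2-Eb1, 5 called against a background of 55.5% (28.4% higher, 27.1% lower). H2-K1 was 2.43-fold lower in NFs (log2 fold change -1.28, SE 0.155, adjusted p = 0.000196), H2-D1 1.96-fold lower (-0.97, SE 0.191, adjusted p = 0.003) and Tapbp 2.19-fold lower (-1.13, SE 0.213, adjusted p = 0.00231). B2m did not pass the test (0.12, SE 0.187, adjusted p = 0.616). Tumor cells alone had no more than 3 counts of H2-Ab1 and 0 of H2-Eb1. The mean of NFs alone was 6.81-fold and 3.72-fold the level of 3 counts per library, without counting error. H2-Eb1 missed the threshold without gel 5 (adjusted p = 0.0528).

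In the shared gels 4 and 5 the order of the heavy chains turned, and B2m, which did not pass the test between cells grown alone, was higher in NFs. NFs were 1.44-fold higher in H2-K1 (log2 fold change 0.53, SE 0.135, adjusted p = 0.0113), 1.65-fold higher in H2-D1 (0.72, SE 0.169, adjusted p = 0.00739) and 1.62-fold higher in B2m (0.70, SE 0.167, adjusted p = 0.00844). CD26- NFs overlapped with the tumor cells for H2-K1 (289.8 and 276 CPM against 256 and 296 CPM) and for H2-D1 (396 and 355 CPM against 362 and 341 CPM), whereas for B2m they lay above them (487 and 519.5 CPM against 469.7 and 398 CPM). Tapbp stayed lower in NFs (-1.19, SE 0.176, adjusted p = 0.000677), Nlrc5 was higher (3.19, SE 1.11, adjusted p = 0.041) and Cd74 6.02-fold lower (-2.59, SE 0.475, adjusted p = 0.00218). The NF mean of H2-Ab1 was 175-fold the level of 3 counts per tumor library. In all, 8 of 8 tested were called against a background of 51.8% (27.7% higher, 24.2% lower), with H2-Eb1 at 0 counts in tumor cells and 2 to 10 counts in NFs. Without gel 4 or without gel 5, a single library was left in each co-cultured group, and most of these calls were lost. The median log2 fold change of the members was then 0.87 and 0.60, against 0.71 with both gels.

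The listed loading genes also differed between the cell types. Tap1 was higher in NFs alone (2.10, SE 0.357, adjusted p = 0.00133) and in the shared gels (1.66, SE 0.322, adjusted p = 0.00297), and Tap2, the other TAP subunit, likewise (1.80, SE 0.245, adjusted p = 0.000384, and 1.26, SE 0.218, adjusted p = 0.0016). With Tapbp higher in tumor cells, the ratio of Tapbp to Tap1 per kb was 4.26 to 8.93 in NFs and 39.1 to 86.3 in tumor cells, without overlap. Of the 18 class I and class I-like genes, 7 were higher and 3 lower in NFs alone than in tumor cells alone, near the 28.4% and 27.1% of all genes. In the shared gels 14 were higher and 0 lower, against 27.7% and 24.2% of all genes. For Raet1e, an NKG2D ligand gene, the mean of NFs in the shared gels was 24.5-fold the level of 3 counts per tumor library.

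The response to co-culture differed between the cell types for the heavy chains. The log2 fold change in NFs exceeded that in tumor cells by 1.81 for H2-K1 (SE 0.206, adjusted p = 0.000892) and by 1.69 for H2-D1 (SE 0.256, adjusted p = 0.00318). B2m (0.58, SE 0.249, adjusted p = 0.14), Tapbp (-0.05, SE 0.279, adjusted p = 0.974) and Cd74 (-2.55, SE 0.783, adjusted p = 0.053) did not pass, although Cd74 passed without the filter (adjusted p = 0.0251), with counts less the share of the other cell type (adjusted p = 0.0446) and without gel 3 (adjusted p = 0.0328). H2-Ab1 passed, but not without gel 3 (adjusted p = 0.931), and tumor cells were at or under 3 counts in either culture, so its fitted value is not given. These 3 of 8 tested stand against a background of 20.2% (12% higher, 8.15% lower). Without gel 4 or without gel 5 none passed, in edgeR fits that called 0 genes of the whole table (3260 and 3467 at an unadjusted p under 0.05), with H2-K1 at 1.78 and 1.82 and H2-D1 at 1.78 and 1.59.

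Among the 9332 genes of at least 10 CPM on average, those most like each member over the 10 libraries are given as a description, by Pearson's r of log2(CPM + 1), and all points share the split by cell type and culture. H2-K1 was followed most closely by Arl4c (r = 0.981), Rtn4 (0.981) and Pla2g7 (0.975), H2-D1 by Stom (0.972), Dnm2 (0.965) and Sympk (0.959), and B2m by Atg13 (0.974). Tapbp was followed by Ehmt1 (0.991) and Nolc1 (0.989), Nlrc5 by Srp14 (0.949) and Zfp346 (0.943), and H2-Ab1 by Adm2 (0.997), Syn1 (0.994) and Plek (0.992). No other MHC gene was among the 3 closest of these 6 members.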

How the data were processed

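RNA of sorted mouse cells was sequenced after stranded mRNA library preparation on HiSeq and NovaSeq instruments, per the labels. The authors deposited 1 table of all 10 libraries, which holds raw counts of reads for each gene without normalization. The submitters' processing notes name HISAT2 2.2.1 and GRCm38. How reads were assigned to genes, whether strand was used, and the annotation release are not given in the sources used here, so overlapping, antisense and near-identical genes are uncertain. Of the gene IDs, 99.53% were in GENCODE M21, and 99.42% of these had equal chromosome, start and end. A row without an ID held 0 counts and was left out. Groups and gels came from the labels.

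All genes that passed filterByExpr were tested with the quasi-likelihood F test of edgeR 4.0.16 (R 4.3.3) after TMM scaling. The p-values were adjusted by Benjamini-Hochberg, and the threshold was 0.05. NF libraries were fitted with subset and culture, or as 4 groups for contrasts within a subset or culture. Fits of tumor libraries had terms for line and culture, and contrasts of NFs with tumor cells used all 10 libraries. SE is of the log2 fold change. CPM in the text are over library totals, whereas folds are TMM-scaled. Folds against groups with no more than 3 counts per library set the mean of the higher group against 3 counts, without counting error. Intervals and limits cover counting error only, since reads are not independent molecules. Alternatives were RLE scaling, no filter, DESeq2 1.42.0, the study's added criterion of an absolute log2 fold change above 2, all libraries in 6 groups, leaving out each gel, gel as a block, no line, and counts less the share of the other cell type. Scripts were tested on simulated data. Per the labels, libraries of the same gel number come from the same gel, which pairs them. The gel 5 minus gel 4 differences of co-cultured libraries correlated at 0.264 (CD26- with CD26+ NFs), 0.190 and 0.099 (either with tumor cells) over 13490 genes. The main fits treat libraries as independent, although those of a gel are paired. Their p-values measure the spread between libraries that is left after the terms of the fit. Culture varies only between gels, and gels 4 and 5 also differ in tumor line.

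The members and lists were chosen with earlier results of these data known. The members are named throughout, and a listed gene only where it passed the threshold (at most the 4 with the largest change per list and comparison) or where its role needed it. Some further genes are not reported here. Promoter sequences are from RefSeq (GRCm38.p6).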

Additional observations from a re-analysis of the deposited data

Results flagged for a closer look

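2 results were picked out because the same contrast, co-culture against culture alone, differed between NFs and tumor cells by a test of the difference itself. For H2-K1 the log2 fold change in NFs exceeded that in tumor cells by 1.81 (SE 0.206, adjusted p = 0.000892, edgeR), with levels of 63.2 and 129.8 CPM in NFs alone, 276 to 446 CPM in co-cultured NFs and 224.8 to 296 CPM in tumor cells. For H2-D1 the difference was 1.69 (SE 0.256, adjusted p = 0.00318). Neither passed without gel 4 or without gel 5, in edgeR fits that called 0 genes in all (3260 and 3467 at an unadjusted p under 0.05), and NFs alone came from gel 1 only. No group held enough libraries for a test of single outlying values.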

How the results depend on the processing

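No called value changed sign under any alternative run. Counts of called members moved by more than 1.5 times as follows. With the added criterion of an absolute log2 fold change above 2, 1 member passed between subsets over 3 gels, 0 between subsets within co-culture, 1 for co-culture in NFs, 2 in CD26- NFs, 1 in CD26+ NFs, 2 between cell types alone, 4 between cell types in shared gels and 1 for the difference in response. With all 10 libraries in 6 groups, 0 passed between subsets over 3 gels, 0 within co-culture and 0 for co-culture in tumor cells. Without the filter on low counts, 1 passed between subsets within co-culture, 2 for co-culture in tumor cells (H2-D1 was added) and 3 between tumor lines. In tumor cells, 0 passed with DESeq2 and 0 without line in the model. Leaving out 1 gel at a time gave 0 to 3 called members between subsets over 3 gels (0 without gel 5), 2 to 7 between cell types in shared gels and 0 to 3 for the difference in response. Some of these fits had no residual degrees of freedom and gave values without a test, namely those of tumor cells alone and those of the 4 NF groups without gel 4 or gel 5. With the gel as a replicate block, 3, 2 and 0 members passed between subsets over 3 gels, within co-culture and for the interaction, and 7 in shared gels, where H2-Eb1 was not tested. The block changed no call of a tested member. For single members 585 alternatives gave the same call or value, 36 a weaker and 9 a stronger call, and 11 untested values, all without 1 gel, moved by more than their standard error. The cause of these shifts was not tested. With NFs alone from 1 gel, and 1 to 3 counts for H2-Aa and Ciita at most, small differences were not detectable.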
